A study of Caenorhabditis elegans with 30 samples.

Results

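Transcript levels of 10 genes of the endoplasmic reticulum (ER) and its stress response were followed across all 6 groups of an RNA-sequencing study of ethanol in Caenorhabditis elegans. The genes were taken by name as rows of the table of counts per gene, 10 of 46739 rows, and all 10 passed the filter on low counts. They were chosen with earlier results of these data known. Shares of the 10 genes set beside shares of all genes are therefore descriptions, not tests. They are xbp-1, ire-1, pek-1 and atf-6 of the unfolded protein response, the protein disulfide isomerase genes pdi-1, pdi-2, pdi-3 and pdi-6, the calreticulin gene crt-1 and the choline kinase gene ckb-2. The last 2 are neither stress sensors nor disulfide isomerases, and xbp-1 encodes a transcription factor rather than a sensor.

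Secreted and membrane proteins fold in the ER, where disulfide isomerases form and rearrange their disulfide bonds and lectin chaperones such as calreticulin hold glycoproteins until they are folded. When unfolded proteins or changes in the ER membrane build up, the membrane proteins IRE-1, PEK-1 and ATF-6 sense the condition and start the unfolded protein response. IRE-1 is a kinase and endoribonuclease that cuts an intron out of xbp-1 mRNA, so that the transcription factor XBP-1 is made. PEK-1 slows translation by phosphorylating the initiation factor eIF2alpha. ATF-6 is a transcription factor held in the ER membrane and released by proteolysis. Choline kinase makes phosphocholine, a step on the way to phosphatidylcholine, the main lipid of the ER membrane. Counts per gene hold both the cut and the uncut form of xbp-1 mRNA, so splicing was not measured here.

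The worms were swsn-9(ok1354) mutants (strain RA503), which carry a deletion in a gene for a subunit of the SWI/SNF chromatin remodeling complex, and wild-type N2. The study asked which transcripts change during a long exposure to ethanol that is followed by withdrawal behavior, and whether swsn-9 is needed for those changes. The 6 groups of 5 libraries each were swsn-9 mutants at 400 mM and at 0 mM ethanol, collected immediately after exposure, wild type at 400 mM and at 0 mM collected 6 h postexposure, and wild type at 400 mM and at 0 mM collected immediately. All worms were exposed from the L4 stage for 18 h with food and were young adult hermaphrodites at harvest, all mutant libraries came from 1 allele that had been outcrossed to N2, and the 6 h groups had been moved to fresh plates without ethanol. RNA came from whole worms pooled per library, so fewer cells of a type and less RNA per cell cannot be told apart.

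Library depth, as reads counted in genes, lay between 11812827 and 23505210, with a median of 16480465. No library was a copy of another in its group, but some lay apart by a chi-square per gene between the counts of 2 libraries. In wild type at 6 h, replicate 1 gave 267.6 to 331.6 at 400 mM, against 7.17 to 17.98 among the others. At 0 mM, replicate 1 at 6 h gave 51.64 to 74.14 (others 3.87 to 9.68). Replicate 5 collected immediately gave 52.81 to 71.71 (others 5.47 to 16.09). The causes were not tested. The mutated gene itself followed the labels, with 57.6 to 63.7 CPM (counts per 1000000 counted reads, scaled by the TMM method) in swsn-9 mutants at 400 mM and 52.3 to 65.5 at 0 mM, against 182 to 209 and 182 to 203 in wild type collected at the same time. Counts over the whole gene do not separate the deleted part from the rest. TMM sets each library against 1 reference library. The choice of that library moved the log2 effect of ethanol by between −0.015 and 0.003 in wild type immediately after exposure. In mutants it moved that effect by between −0.045 and 0.037, and the difference from wild type by between −0.053 and 0.043. Mutants against wild type moved by between −0.021 and 0.049 at 0 mM and between −0.025 and 0.089 at 400 mM. Genes with an adjusted p under 0.05 are called DEGs (differentially expressed genes).

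All 10 genes encode proteins, and their positions are on assembly WBcel235. The transcription factor gene is xbp-1 (III:4193809-4195358, forward strand, 3 exons). The sensor genes are ire-1 (II:8112243-8124910, reverse strand, 10 exons), pek-1 (X:11410176-11414887, reverse strand, 12 exons) and atf-6 (X:12480948-12484904, forward strand, 10 exons). The isomerase genes are pdi-1 (III:3699739-3701461, reverse strand, 4 exons), pdi-2 (X:4524155-4526536, forward strand, 4 exons), pdi-3 (I:7015908-7020797, reverse strand, 8 exons) and pdi-6 (X:7066342-7068563, reverse strand, 4 exons). The gene crt-1 (V:6098992-6100542, reverse strand) has 3 exons and ckb-2 (III:4367949-4370160, forward strand) has 8. Exons of ire-1 share 4 bases with unc-105 on the other strand, exons of crt-1 share 92 bases with smut-1 on the other strand, and exons of pdi-2 share 18 bases with the noncoding gene C07A12.19 on the same strand. The strand setting of the counts is not given in the sources used here, so reads in these stretches cannot be assigned with certainty.

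Per kilobase of exon, the chaperone and isomerase genes were above ire-1, pek-1 and atf-6, and xbp-1 lay among them. Over the 30 libraries, crt-1 averaged 808 CPM per kilobase, pdi-3 468, pdi-2 425, pdi-1 277, xbp-1 193, pdi-6 169, ire-1 49.6, ckb-2 28.4, pek-1 14.9 and atf-6 6.57. The order was not fixed between some neighbors. In mutants at 0 mM, pdi-2 had 543 ± 18.02 CPM per kilobase and pdi-3 494 ± 32.3 (SD, n = 5), the reverse of their order in wild type at 0 mM, with 380.0 ± 8.37 and 441 ± 8.23. The ranges of pdi-3 and pdi-2 overlapped in both mutant groups, those of xbp-1 and pdi-6 in 3 of the 6 groups, those of pdi-1 and xbp-1 in 2, and those of ire-1 and ckb-2 and of ckb-2 and pek-1 in 1 group each. The other 4 pairs of neighbors did not overlap in any group.

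**Figure D1:**
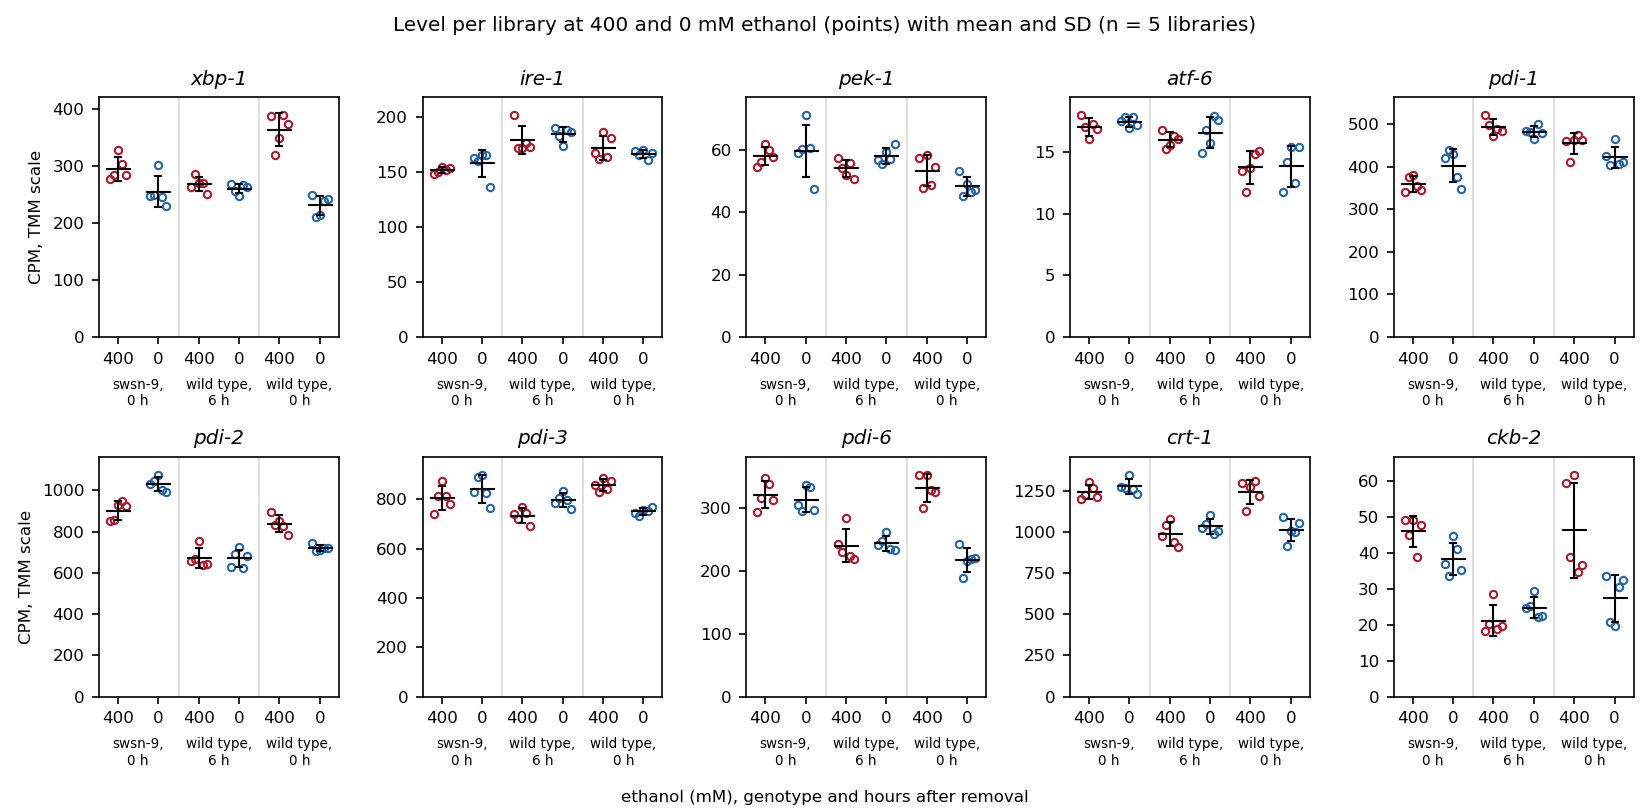
CPM on the TMM scale (vertical axes, from 0) of each gene in each library (points), with the mean and SD of 5 libraries (black), at 400 mM (red) and 0 mM ethanol (blue) in swsn-9 mutants collected immediately (0 h), wild type 6 h postexposure and wild type collected immediately. In wild type collected immediately, all 5 libraries at 400 mM lay above all 5 at 0 mM for xbp-1, pdi-2, pdi-3, pdi-6, crt-1 and ckb-2, and only for pdi-2 in the mutants did the groups separate, with 400 mM below.

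Immediately after exposure, ethanol raised 6 of the 10 genes in wild type. The transcription factor gene xbp-1 rose 1.59-fold, pdi-6 1.54-fold and ckb-2 1.70-fold, and crt-1, pdi-2 and pdi-3 rose by less. The genes of the 3 sensors themselves and pdi-1 did not pass the test. Over all 16210 genes tested, 6.81% were upregulated and 5.94% downregulated, and the median log2 fold change was 0.21 over the 10 genes and 0.005 over all genes. All tests are quasi-likelihood tests of edgeR with Benjamini-Hochberg adjustment over all genes tested, and errors of log2 fold changes are SE.

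For xbp-1, the libraries of replicates 1 to 5 had 387, 319.5, 349, 389 and 374 CPM at 400 mM, against 249, 210.4, 214, 239 and 242 CPM at 0 mM. The lowest library at 400 mM was above the highest at 0 mM. The means were 364 ± 29.4 and 231 ± 17.4 CPM (SD, n = 5 each), and the log2 fold change was 0.67 ± 0.06 (adjusted p = 2.22e-08). IRE-1, which cuts this transcript, was encoded by a gene whose level did not pass the test, with 167, 162, 186, 164 and 182 CPM for ire-1 at 400 mM, against 169.7, 166, 170.4, 161 and 168 CPM at 0 mM. The groups overlapped, and the log2 fold change was 0.06 ± 0.05 (adjusted p = 0.55). The eIF2alpha kinase gene pek-1 had 57.6, 47.8, 58.5, 48.9 and 54.6 CPM at 400 mM, against 53.3, 45.4, 49.3, 46.6 and 47.2 CPM at 0 mM. These groups also overlapped, and its log2 fold change of 0.16 ± 0.06 missed the threshold (adjusted p = 0.11). Without replicate 2 at 400 mM, the lowest of its group, it passed, with 0.20 and adjusted p = 0.0372. The least abundant sensor gene was atf-6, at 13.8 ± 1.33 CPM at 400 mM and 13.9 ± 1.67 CPM at 0 mM (SD, n = 5 each) (log2 fold change 0.004 ± 0.09, adjusted p = 0.989).

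Among the disulfide isomerases, pdi-6, related to the mammalian isomerase PDIA6, changed most. Its libraries had 352, 299, 351, 328 and 324 CPM at 400 mM, against 242, 188, 216, 218 and 220.5 CPM at 0 mM, and the groups did not overlap. The log2 fold change was 0.62 ± 0.07 (adjusted p = 9.67e-07). PDI-2, which also serves as the beta subunit of collagen prolyl 4-hydroxylase in the worm, is encoded by pdi-2, which had 895, 834, 854, 829.7 and 786 CPM at 400 mM, against 747, 705, 714, 719.7 and 721 CPM at 0 mM. Its log2 fold change was 0.23 ± 0.05 (adjusted p = 0.00314). For pdi-3, which encodes a relative of mammalian ERp57, the values were 858, 829, 885, 843 and 877 CPM at 400 mM, against 745, 734, 757, 751 and 771 CPM at 0 mM. Its log2 fold change of 0.20 ± 0.04 (adjusted p = 0.000633) was close to that of pdi-2, and neither gene's groups overlapped. The remaining isomerase gene, pdi-1, had 462, 411, 464, 476 and 464 CPM at 400 mM, against 425, 405, 465, 407 and 411 CPM at 0 mM. Replicate 2 lay apart below the other 4 at 400 mM and replicate 3 was highest at 0 mM, and the log2 fold change was 0.12 ± 0.05 (adjusted p = 0.104). It passed without either library, with 0.15 (adjusted p = 0.0183) without replicate 2 at 400 mM and 0.155 (adjusted p = 0.0244) without replicate 3 at 0 mM.

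The gene for calreticulin, crt-1, was the most abundant of the 10, with 1293, 1128, 1270, 1307 and 1218 CPM at 400 mM, against 1088, 912, 1005, 999.6 and 1055 CPM at 0 mM. The groups did not overlap, and the log2 fold change was 0.31 ± 0.06 (adjusted p = 0.000529). For ckb-2, the libraries had 59.6, 38.8, 61.8, 34.7 and 36.7 CPM at 400 mM, against 33.5, 20.9, 19.7, 30.4 and 32.4 CPM at 0 mM. Replicates 1 and 3 stood well above the other 3 at 400 mM, and at 0 mM replicates 2 and 3 stood below the other 3. The groups still did not overlap, and the log2 fold change of 0.77 ± 0.17 (adjusted p = 0.00391) was the largest of the 10 and had the largest error. Groups without overlap and 400 mM higher, as in 6 of the 10 genes, were found in 4.69% of all genes tested.

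Other genes of the ER were counted in 9 lists (92 genes tested here), and the chaperone list moved most like the 10 genes. These lists too were chosen with earlier results of these data known. Of its 11 genes, 4 were upregulated. They were enpl-1, the worm GRP94, at 889 CPM at 400 mM and 628 at 0 mM (log2 fold change 0.51 ± 0.05, adjusted p = 3.01e-07), the DnaJ co-chaperone gene dnj-28 (0.42 ± 0.09, adjusted p = 0.00246), and both genes for BiP, the Hsp70 of the ER. Of these, hsp-3 had 724 ± 55.1 CPM at 400 mM and 628 ± 47.4 CPM at 0 mM (SD, n = 5 each; log2 fold change 0.21 ± 0.06, adjusted p = 0.0159). The other BiP gene, hsp-4, had 578 ± 61.6 CPM at 400 mM and 509.7 ± 36.3 CPM at 0 mM (SD, n = 5 each; log2 fold change 0.19 ± 0.06, adjusted p = 0.0416). The libraries of both BiP genes overlapped between the groups. Of 9 other enzymes with a thioredoxin fold, 1 was upregulated, the PDIA4 relative C14B9.2 (0.58 ± 0.07, adjusted p = 2.56e-06).

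The machinery that brings proteins into the ER did not follow this direction. Of 19 genes for the translocon, signal peptidase and oligosaccharyltransferase, 7 were downregulated, with the smallest p for the translocon-associated genes trap-1 (−0.39 ± 0.05, adjusted p = 1.04e-05) and trap-2 (−0.41 ± 0.06, adjusted p = 2.88e-05), and 1 was upregulated, the signal peptidase gene spcs-3 (0.25 ± 0.04, adjusted p = 0.000437). Of 9 genes for choline kinases and other steps to phosphatidylcholine, 2 were upregulated. These were the choline kinase genes ckb-4, at 18.9 CPM at 400 mM and 8.04 CPM at 0 mM (1.24 ± 0.11, adjusted p = 6.34e-08), and cka-1 (0.14 ± 0.04, adjusted p = 0.0157). In the list of the translation branch, 1 of 6 was downregulated, the gene eif-2alpha for the target of PEK-1 (−0.15 ± 0.04, adjusted p = 0.0166). In edgeR, 0 of 23 genes for ER-associated degradation, 0 of 5 abu genes, 0 of 4 collagen hydroxylase genes and 0 of 6 genes for ER calcium handling passed. At an unadjusted p under 0.05 these counts were 5, 0, 1 and 1, and with DESeq2 they were 0, 0, 1 and 0.

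Some markers of tissues also moved at this time. Of the genes tested in 8 marker lists, 3 of 10 for hypodermis and cuticle, 3 of 14 for intestine and 1 of 16 for oocytes and germline were downregulated, and 2 of 14 for intestine were upregulated. Summed over the intestine list, which holds the yolk protein genes, libraries at 400 mM had 68870 to 92830 CPM, against 80920 to 92150 CPM at 0 mM. The hypodermis list summed to 988 to 1528 CPM at 400 mM, against 865 to 1332 CPM at 0 mM, with sqt-1 at 0 in both groups. Their part in the changes of the 10 genes was not tested.

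At 6 h postexposure, none of the 10 genes passed the main test of ethanol in wild type. In edgeR without a replicate block, 0 of the 10 passed, against 2.78% of 16210 genes upregulated and 1.16% downregulated. At an unadjusted p under 0.05 the count was 1, pdi-3, and DESeq2 also called 1, pdi-3. The median log2 fold change was −0.04 over the 10 genes and 0.02 over all genes.

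The libraries of xbp-1 had 264, 286, 271, 269.6 and 251 CPM at 400 mM, against 268, 257, 247, 266 and 264 CPM at 0 mM. The groups overlapped (log2 fold change 0.05 ± 0.06, adjusted p = 0.683). For pdi-6, the values were 242, 229.9, 284, 223 and 218 CPM at 400 mM, against 241, 247, 261, 234 and 233 CPM at 0 mM (−0.02 ± 0.07, adjusted p = 0.922). Replicate 3 was the highest library of each group for pdi-6. The calreticulin gene crt-1 had 973.4, 1043, 1079, 937 and 906 CPM at 400 mM, against 1025, 1048, 1101, 987 and 1006 CPM at 0 mM (−0.06 ± 0.06, adjusted p = 0.597). For ckb-2, they were 18.2, 20.2, 28.6, 18.8 and 19.8 CPM at 400 mM, against 24.6, 25.2, 29.4, 22.3 and 22.3 CPM at 0 mM (−0.22 ± 0.18, adjusted p = 0.537). In ckb-2 too, replicate 3 was the highest library of each group. The isomerase gene pdi-2 was at 672 ± 47.5 CPM at 400 mM and 671 ± 42.4 CPM at 0 mM (SD, n = 5 each), a log2 fold change of 0.006 ± 0.05 (adjusted p = 0.966).

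The gene closest to the threshold at 6 h was pdi-3, with 742, 720.2, 770.1, 746 and 692 CPM at 400 mM, against 787, 805, 836, 797 and 761 CPM at 0 mM. Its log2 fold change of −0.12 ± 0.04 (adjusted p = 0.0861) had the opposite sign to that found immediately after exposure. It passed with the size factors of DESeq2 in place of TMM (−0.13, adjusted p = 0.0441), with another filter on low counts (−0.12, adjusted p = 0.0341) and with DESeq2 (−0.13, adjusted p = 0.00421). With the replicate number as a block in edgeR it also passed (−0.12, adjusted p = 0.0168). In every same-numbered pair the library at 400 mM was lower for pdi-3. The same held for crt-1 and ckb-2, which did not pass with the block (adjusted p = 0.27 and 0.35). The change of pdi-3 did not pass when any 1 library was left out of the main fit. The remaining genes gave −0.04 ± 0.05 for ire-1, −0.10 ± 0.06 for pek-1, −0.05 ± 0.09 for atf-6 and 0.04 ± 0.05 for pdi-1.

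**Figure D2:**
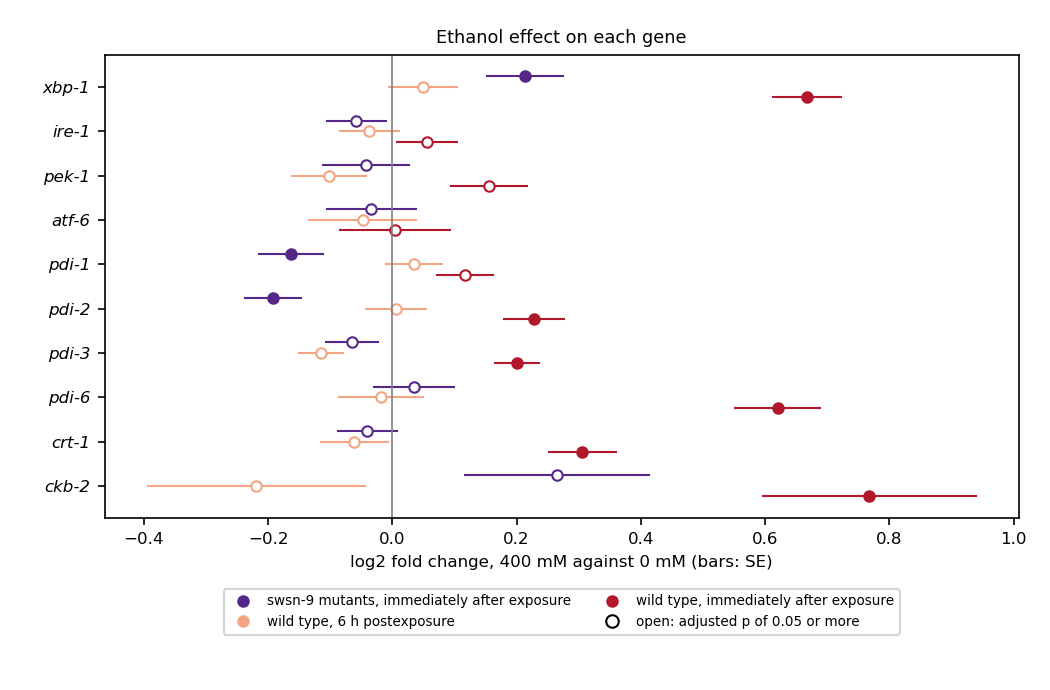
Log2 fold change at 400 mM against 0 mM ethanol (horizontal axis, bars are SE) of each gene in swsn-9 mutants, in wild type 6 h postexposure and in wild type immediately after exposure. Filled points passed an adjusted p of 0.05. Immediately after exposure, 6 genes in wild type lay right of 0 and passed, with xbp-1, pdi-6 and ckb-2 farthest out, and at 6 h all points are open.

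The effect of ethanol was then compared between the times, as the effect immediately after exposure minus that at 6 h. This difference was positive and passed in 5 of the 10 genes, against 2.18% of all genes with a positive difference. They were xbp-1 (0.62 ± 0.08, adjusted p = 2.07e-05), pdi-6 (0.64 ± 0.10, adjusted p = 0.000184), pdi-3 (0.32 ± 0.05, adjusted p = 0.000408), crt-1 (0.37 ± 0.08, adjusted p = 0.00531) and ckb-2 (0.99 ± 0.25, adjusted p = 0.018). For pdi-2, upregulated immediately and not at 6 h, the difference of 0.22 ± 0.07 did not pass (adjusted p = 0.0712), and it passed without replicate 3 at 400 mM and 6 h (0.27, adjusted p = 0.0151), with DESeq2 (adjusted p = 0.0272) and with all 30 libraries in the fit (adjusted p = 0.0431). For pek-1 the difference was 0.26 ± 0.09 (adjusted p = 0.0971), and it passed without replicate 2 at 400 mM collected immediately (0.30, adjusted p = 0.0344) and with library totals alone in place of TMM (adjusted p = 0.0474). The others were 0.08 ± 0.07 for pdi-1, 0.09 ± 0.07 for ire-1 and 0.05 ± 0.13 for atf-6. The median difference was 0.29 over the 10 genes and −0.002 over all genes.

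At 6 h, the chaperone enpl-1 still differed, at 816 CPM at 400 mM and 716 CPM at 0 mM (0.20 ± 0.05, adjusted p = 0.0367), and the calnexin gene cnx-1 was lower (−0.17 ± 0.04, adjusted p = 0.0301), as the only 2 of the 11 chaperone genes past the threshold. The BiP genes gave −0.005 ± 0.06 for hsp-3 (adjusted p = 0.974) and −0.03 ± 0.06 for hsp-4 (adjusted p = 0.822). C14B9.2 was upregulated (0.36 ± 0.07, adjusted p = 0.00389), 1 of 9 in its list. In the translation branch, 1 of 6 was upregulated, atf-4, which encodes a transcription factor of the integrated stress response (0.33 ± 0.08, adjusted p = 0.0242). The genes ribo-1 and stt-3 for subunits of the oligosaccharyltransferase were downregulated (−0.16 ± 0.04 and −0.13 ± 0.03, adjusted p = 0.0115 and 0.0283), 2 of 19 in their list, as was cdc-48.1, encoding the ATPase that pulls proteins out of the ER membrane (−0.16 ± 0.04, adjusted p = 0.0235), 1 of 23 for ER-associated degradation.

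In swsn-9 mutants, collected immediately after exposure, ethanol moved 3 of the 10 genes, and 2 of them fell. Only xbp-1 rose, 1.16-fold, and pdi-1 and pdi-2 fell to 0.893 and 0.875 of their level at 0 mM. Over the 16934 genes tested with the mutants, 10.1% were upregulated and 14.3% downregulated, so that a share of 1 in 10 higher and 2 in 10 lower is near the background. The median log2 fold change was −0.04 over the 10 genes and −0.01 over all genes.

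The libraries of xbp-1 had 276, 284, 328, 303 and 284 CPM in mutants at 400 mM, against 246, 249, 301, 246 and 230.1 CPM at 0 mM. Replicate 3 was the highest library of both groups, and it made the groups overlap. The log2 fold change was 0.21 ± 0.06 (adjusted p = 0.0121). The rise passed under every alternative and without any 1 library. The sensor genes gave −0.06 ± 0.05 for ire-1 (adjusted p = 0.409), −0.04 ± 0.07 for pek-1 (adjusted p = 0.7) and −0.03 ± 0.07 for atf-6 (adjusted p = 0.768). The ire-1 level of 137 CPM in replicate 5 at 0 mM lay apart below the other 4 of that group.

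The isomerase gene pdi-2 had 852, 856, 930.1, 949.7 and 923 CPM in mutants at 400 mM, against 1033, 1047, 1077, 1003 and 993 CPM at 0 mM. The groups did not overlap, with 400 mM lower, which held for 9.01% of all genes. Its log2 fold change was −0.19 ± 0.05 (adjusted p = 0.00292). With library totals alone in place of TMM scaling, it was −0.12 (adjusted p = 0.171). For pdi-1, the values were 341, 377, 381, 354 and 345 CPM at 400 mM, against 420.4, 439, 430.2, 376 and 349 CPM at 0 mM. The groups overlapped, since replicates 4 and 5 at 0 mM were low, and the log2 fold change was −0.16 ± 0.05 (adjusted p = 0.0231). This call was lost without replicate 1, 2 or 3 at 0 mM or replicate 1 or 5 at 400 mM (−0.15 to −0.13, adjusted p = 0.0593 to 0.0896). It was also lost with library totals alone (−0.09, adjusted p = 0.228), with another filter on low counts (−0.13, adjusted p = 0.0621) and with the mutant libraries fitted alone (−0.13, adjusted p = 0.109).

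Of the 6 genes that had risen in wild type, 4 did not pass in mutants in either direction. For pdi-6, the libraries had 292, 314, 346, 337 and 311 CPM at 400 mM, against 304, 295, 336, 332 and 297 CPM at 0 mM (0.04 ± 0.07, adjusted p = 0.731). The calreticulin gene had 1199, 1222, 1303, 1264 and 1214 CPM at 400 mM, against 1272, 1268, 1347, 1262 and 1228 CPM at 0 mM (−0.04 ± 0.05, adjusted p = 0.587). In both genes the groups overlapped. For pdi-3, the values were 743, 814, 875, 814 and 781 CPM at 400 mM, against 831, 889.6, 901, 827 and 764 CPM at 0 mM (−0.07 ± 0.04, adjusted p = 0.277), and these groups overlapped as well. The choline kinase gene ckb-2 had 49.1, 45.02, 49.2, 39.02 and 47.9 CPM at 400 mM, against 36.9, 33.7, 44.8, 40.98 and 35.4 CPM at 0 mM (0.27 ± 0.15, adjusted p = 0.201). It was higher at 400 mM when the mutant libraries were fitted alone (0.30, adjusted p = 0.0166).

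The ethanol effect itself differed between the genotypes in 6 of the 10 genes, all lower in the mutants, against 2.75% of all genes with a lower and 1.40% with a higher effect in the mutants. For xbp-1, the effect was 0.21 in mutants and 0.67 in wild type, a difference of −0.44 ± 0.09 (adjusted p = 0.0025). For pdi-6, it was 0.04 in mutants and 0.62 in wild type (−0.58 ± 0.09, adjusted p = 0.000258). The isomerase gene pdi-2 moved in opposite directions, −0.19 in mutants and 0.23 in wild type (−0.41 ± 0.07, adjusted p = 0.000258). Smaller differences were found for crt-1 (−0.34 ± 0.07, adjusted p = 0.00382), pdi-3 (−0.26 ± 0.06, adjusted p = 0.0105) and pdi-1 (−0.27 ± 0.07, adjusted p = 0.0311).

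The difference of pdi-1 depended on single libraries and on other choices. It no longer passed without replicate 2, 4 or 5 of wild type at 0 mM, replicate 4 or 5 of wild type at 400 mM, replicate 1, 2 or 3 of mutants at 0 mM or replicate 1, 4 or 5 of mutants at 400 mM (adjusted p = 0.0555 to 0.0744). For pdi-1, it was also lost with another filter on low counts (−0.23, adjusted p = 0.0621) and when only the compared groups were fitted (−0.23, adjusted p = 0.121). With library totals alone, neither pdi-1 (−0.25, adjusted p = 0.0547) nor pdi-3 (−0.24, adjusted p = 0.0539) passed. For ckb-2, the estimate of −0.49 ± 0.22 was as large as that of xbp-1 but did not pass (adjusted p = 0.232). The genes pek-1 (−0.19 ± 0.10, adjusted p = 0.352), ire-1 (−0.10 ± 0.07) and atf-6 (−0.03 ± 0.11) did not pass either. The median difference was −0.30 over the 10 genes and −0.01 over all genes. Both differences use the wild-type libraries collected immediately, so those between times and those between genotypes are not independent of each other.

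**Figure D3:**
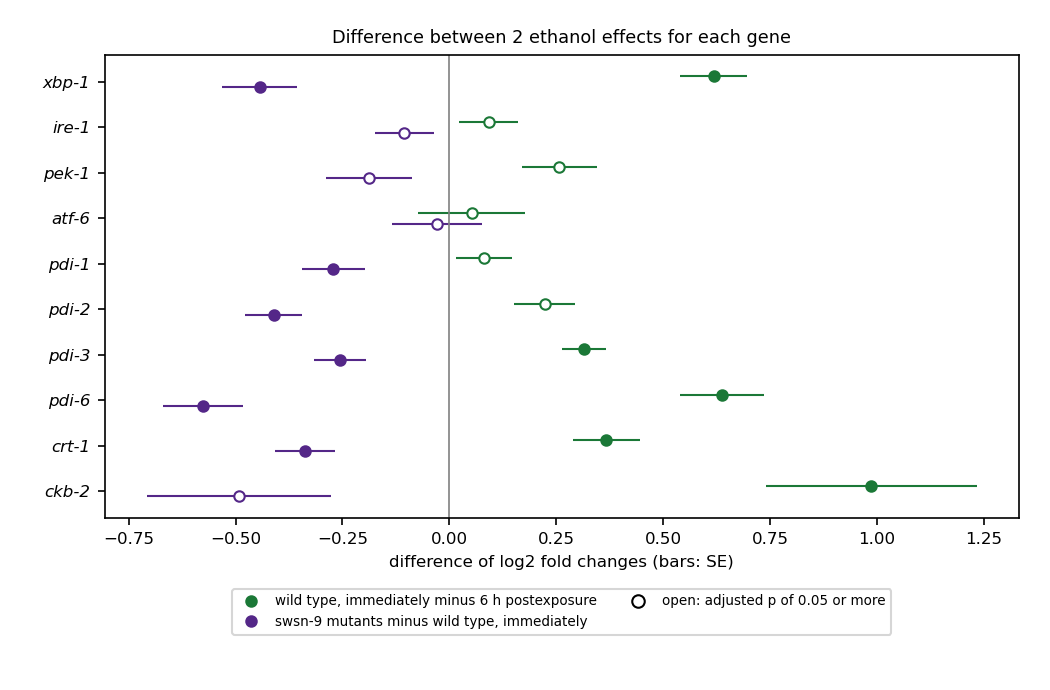
Difference between 2 ethanol effects on the log2 scale (horizontal axis, bars are SE), as wild type immediately minus wild type 6 h postexposure (green) and as swsn-9 mutants minus wild type, both immediately (purple). Filled points passed an adjusted p of 0.05, which 5 genes did in the first and 6 in the second, and both differences share the 10 wild-type libraries collected immediately.

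Of the 97 genes of the 9 ER lists tested with the mutants, 45 were downregulated by ethanol in mutants and 5 upregulated. Of 11 chaperone genes, 6 were downregulated, among them the GRP170 relative T14G8.3 (−0.32 ± 0.07, adjusted p = 0.000728), cnx-1 (−0.20 ± 0.04, adjusted p = 0.00112) and the BiP gene hsp-4, at 395 ± 31.9 CPM at 400 mM and 488 ± 50.1 CPM at 0 mM (SD, n = 5 each; −0.30 ± 0.07, adjusted p = 0.00119). For hsp-3, with 812 ± 43.4 CPM at 400 mM and 881 ± 46.1 CPM at 0 mM (SD, n = 5 each), the log2 fold change of −0.12 ± 0.05 did not pass (adjusted p = 0.115). The 1 chaperone gene upregulated was uggt-2, at only 1.40 CPM at 400 mM and 0.541 CPM at 0 mM. The ethanol effect on 6 of the 11 was lower in mutants than in wild type, including hsp-3 (−0.32 ± 0.08, adjusted p = 0.0113), hsp-4 (−0.49 ± 0.09, adjusted p = 0.00204) and enpl-1 (−0.55 ± 0.07, adjusted p = 1.96e-05).

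Of the 19 translocon, signal peptidase and oligosaccharyltransferase genes, 16 were downregulated in mutants, led by trap-4 (−0.37 ± 0.04, adjusted p = 3.48e-08) and trap-2 (−0.52 ± 0.06, adjusted p = 6.96e-08). For ER-associated degradation, 10 of 23 were downregulated, with the smallest p for cdc-48.1 (−0.27 ± 0.05, adjusted p = 9.79e-05) and the EDEM-like gene ZC506.1 (−0.27 ± 0.05, adjusted p = 0.000363). Among other thioredoxin-fold enzymes, 3 of 9 were downregulated, including dnj-27, a relative of the reductase ERdj5 (−0.53 ± 0.08, adjusted p = 4.18e-06), and txdc-12.2 (−0.83 ± 0.15, adjusted p = 0.000146). In the translation branch, 2 of 6 were downregulated, eif-2alpha (−0.28 ± 0.04, adjusted p = 3.11e-06) and rtcb-1, which encodes the ligase that joins the cut xbp-1 mRNA (−0.17 ± 0.05, adjusted p = 0.019), and atf-4 was upregulated (0.27 ± 0.08, adjusted p = 0.0146). Of the 4 collagen hydroxylase genes, 3 were downregulated, among them let-268 (−0.69 ± 0.11, adjusted p = 2.24e-05) and phy-2, whose product works together with PDI-2 (−0.58 ± 0.13, adjusted p = 0.00127).

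Genes for choline kinases and calcium handling were split. Of 9 genes in the choline list, 2 were upregulated in mutants, ckb-4, at 17.8 CPM at 400 mM and 10.02 CPM at 0 mM (0.83 ± 0.10, adjusted p = 1.36e-07), and the methyltransferase gene pmt-1 (0.30 ± 0.09, adjusted p = 0.0149). Of 6 genes for ER calcium handling, the inositol trisphosphate receptor gene itr-1 was upregulated (0.36 ± 0.11, adjusted p = 0.0134), and calu-1 (−0.37 ± 0.09, adjusted p = 0.0029) and orai-1 (−0.18 ± 0.06, adjusted p = 0.0155) were downregulated. Among 10 abu genes, 3 were downregulated, but at very low levels, with 0.513 CPM at 400 mM and 3.85 CPM at 0 mM for abu-14 and 0.104 and 1.16 CPM for abu-11. Beside these changes, the pharynx marker genes summed to 166 to 306 CPM in mutants at 400 mM, against 118 to 197 CPM at 0 mM, and the oocyte and germline genes to 12870 to 13450 CPM, against 12660 to 15150 CPM. None of the 6 pharynx genes passed, and 5 of 16 oocyte and germline genes were downregulated. Of 14 intestine genes, 5 were upregulated and 5 downregulated, and the list summed to 66020 to 84380 CPM, against 61510 to 91960 CPM. Of 12 hypodermis and cuticle genes, 4 were downregulated (1335 to 1493 CPM, against 1143 to 1730 CPM). The 30 sperm genes all had positive log2 fold changes, with a median of 0.76, but none passed, and they summed to 183 to 431 CPM, against 24.2 to 436 CPM. The part of these markers was not tested.

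Between times in wild type without ethanol, the genes of all sensors passed as higher 6 h later, though the calls of ire-1 and atf-6 depended on single libraries. At 0 mM, 5 of the 10 genes were higher 6 h later than immediately, against 8.19% of all genes that were higher and 10.9% that were lower. The kinase gene pek-1 had 57.01, 55.4, 59.3, 57.3 and 62.1 CPM at 6 h, against 53.3, 45.4, 49.3, 46.6 and 47.2 CPM immediately (0.28 ± 0.06, adjusted p = 0.00402). For ire-1, the values were 174 to 190.5 CPM at 6 h, against 161 to 170.4 CPM immediately (0.15 ± 0.05, adjusted p = 0.034), and for pdi-1 they were 465 to 501 CPM, against 405 to 465 CPM (0.20 ± 0.05, adjusted p = 0.00472). In these 3 genes the groups did not overlap, with 6 h higher, which held for 5.60% of all genes. For pdi-1, the lowest library at 6 h, at 464.9 CPM, only just exceeded the highest collected immediately, at 464.8 CPM. For atf-6, the groups of 14.9 to 17.9 CPM at 6 h and 11.8 to 15.4 CPM immediately overlapped (0.27 ± 0.09, adjusted p = 0.0381), as did those of xbp-1, with 247 to 268 CPM and 210.4 to 249 CPM (0.18 ± 0.06, adjusted p = 0.0262). Tissue markers moved as well. Of 16 oocyte and germline genes, 10 were higher at 6 h and 2 lower, with a median log2 fold change of 0.17. Of 14 intestine genes 3 were lower, as were 3 of 8 for body wall muscle, and none in these 2 lists was higher. The part of these markers was not tested.

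Most of these calls depended on single libraries, apart from those of pek-1 and pdi-1, which passed under every alternative and without any 1 library. The call of ire-1 was lost without replicate 2, 4 or 5 collected immediately or replicate 1, 2, 4 or 5 at 6 h (adjusted p = 0.0543 to 0.0931). That of atf-6 was lost without replicate 1, 2 or 4 collected immediately or replicate 2, 4 or 5 at 6 h (adjusted p = 0.0639 to 0.117), and that of xbp-1 without replicate 2 or 3 collected immediately or replicate 1 or 4 at 6 h (adjusted p = 0.0559 to 0.0872). The call of xbp-1 was also lost with library totals alone (adjusted p = 0.0624) and that of atf-6 with no filter on low counts (adjusted p = 0.0525). When only the compared groups were fitted, pdi-3 (0.10, adjusted p = 0.0344) and pdi-6 (0.18, adjusted p = 0.0372) passed as well. Leaving out replicate 2 of the group collected immediately or replicate 4 of the 6 h group brought the count to 2.

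At 400 mM, the 6 genes that ethanol had raised were lower at the later time. After 6 h without ethanol, 6 of the 10 genes were lower, against 13.7% of all genes that were lower and 11.3% that were higher, and in all 6 the groups did not overlap, with 6 h lower, which held for 9.65% of all genes. The libraries at 400 mM collected immediately also gave the rise with ethanol, so this fall is not independent of that rise. At 0 mM, none of these 6 passed as lower at 6 h, with log2 fold changes between −0.14 for ckb-2 and 0.18 for xbp-1, which alone passed, as higher. The largest change at 400 mM was in ckb-2, with 21.1 ± 4.28 CPM at 6 h and 46.3 ± 13.3 CPM immediately (SD, n = 5 each; −1.12 ± 0.17, adjusted p = 4.48e-05). For pdi-6, the means were 239 ± 26.4 CPM at 6 h and 331 ± 21.97 CPM immediately (SD, n = 5 each; −0.47 ± 0.07, adjusted p = 2.84e-05), and for xbp-1 268 ± 12.7 and 364 ± 29.4 CPM (SD, n = 5 each; −0.44 ± 0.06, adjusted p = 5.06e-06). The other 3 were crt-1 (−0.33 ± 0.06), pdi-2 (−0.32 ± 0.05) and pdi-3 (−0.22 ± 0.04), with adjusted p of 0.000126, 5.66e-05 and 0.000109. For atf-6, all 5 libraries at 6 h were above those collected immediately, at 15.2 to 16.8 CPM and 11.7 to 15.1 CPM, but the test did not pass (0.22 ± 0.09, adjusted p = 0.0767). The 6 h groups were also 6 h older and on fresh plates, which cannot be told apart from the time without ethanol. Over the 30 sperm genes, libraries summed to 2.31 to 6.70 CPM at 6 h, against 69.9 to 308 CPM immediately at 400 mM, and to 1.18 to 92.2 CPM, against 64.97 to 358 CPM at 0 mM, and the part of sperm content in these changes was not tested.

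Without ethanol, swsn-9 mutants had higher levels than wild type for most of those among the 10 genes that ethanol raised in wild type. At 0 mM, 7 of the 10 genes were higher in mutants, against 23.2% of all genes that were higher and 22.3% that were lower. The isomerase gene pdi-2 had 1031 ± 34.2 CPM in mutants and 721 ± 15.9 CPM in wild type (SD, n = 5 each; 0.52 ± 0.05, adjusted p = 3.84e-10). For pdi-6, the means were 313 ± 19.7 CPM in mutants and 217 ± 19.4 CPM in wild type (SD, n = 5 each; 0.53 ± 0.07, adjusted p = 1.34e-07). The calreticulin gene crt-1 had 1275 ± 43.8 CPM in mutants and 1012 ± 66.5 CPM in wild type (SD, n = 5 each; 0.33 ± 0.05, adjusted p = 2.29e-06). In these 3 genes, in ckb-2 (0.49 ± 0.16, adjusted p = 0.0114) and in atf-6 (0.34 ± 0.08, adjusted p = 0.000542), all mutant libraries were above all wild-type libraries, which held for 15.2% of all genes. Smaller or more variable rises were those of pek-1 (0.31 ± 0.07, adjusted p = 0.0008) and pdi-3 (0.17 ± 0.04, adjusted p = 0.00218). The BiP gene hsp-3 had 881 ± 46.1 CPM in mutants and 628 ± 47.4 CPM in wild type, and hsp-4 had 488 ± 50.1 and 509.7 ± 36.3 CPM (SD, n = 5 each). Of 97 genes of the ER lists, 34 were higher in mutants and 34 lower. Among them, 5 of 11 chaperone genes were higher and 1 lower, and 1 of 23 for ER-associated degradation was higher and 16 lower.

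The remaining genes at 0 mM were xbp-1 (0.14 ± 0.06, adjusted p = 0.0671), ire-1 (−0.08 ± 0.05, adjusted p = 0.207) and pdi-1 (−0.07 ± 0.05, adjusted p = 0.304). For xbp-1, the call appeared with other scalings and filters (0.155 to 0.29, adjusted p = 0.00173 to 0.0409), without replicate 1 of wild type (0.17, adjusted p = 0.039) and without replicate 5 of the mutants (adjusted p = 0.0284). The median log2 fold change was 0.32 over the 10 genes and 0.06 over all genes, and scaling by library totals alone moved the median of all genes to 0.21. The wild-type libraries at 0 mM are also those of the ethanol effect in wild type, so these values are not independent of it.

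At 400 mM, where wild type had risen, 1 gene was higher in mutants and 3 were lower, against 26.8% and 25.6% of all genes. The levels of pdi-6, at 320.4 ± 21.6 CPM in mutants and 331 ± 21.97 CPM in wild type (SD, n = 5 each), did not pass the test (−0.05 ± 0.07, adjusted p = 0.563). The same held for crt-1, at 1240 ± 42.6 CPM and 1243 ± 72.9 CPM (SD, n = 5 each; −0.003 ± 0.05, adjusted p = 0.963), and for ckb-2 (−0.006 ± 0.15, adjusted p = 0.979), pdi-2 (0.10 ± 0.05, adjusted p = 0.0625) and pdi-3 (−0.09 ± 0.04, adjusted p = 0.0719). Of the 10 genes, only atf-6 was higher in mutants, with 18.01, 17.04, 16.1, 17.3 and 16.9 CPM, against 13.5, 11.7, 13.7, 14.8 and 15.1 CPM in wild type (0.30 ± 0.07, adjusted p = 0.000987). The BiP gene hsp-3 had 812 ± 43.4 CPM in mutants and 724 ± 55.1 CPM in wild type, and hsp-4 had 395 ± 31.9 and 578 ± 61.6 CPM (SD, n = 5 each). Of 97 genes of the ER lists, 15 were higher in mutants and 44 lower.

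The genes lower in mutants at 400 mM were pdi-1, with 341, 377, 381, 354 and 345 CPM, against 462, 411, 464, 476 and 464 CPM in wild type (−0.34 ± 0.05, adjusted p = 3.19e-06), xbp-1 (−0.30 ± 0.06, adjusted p = 0.000158) and ire-1, with 149, 150.1, 154, 152.1 and 154 CPM, against 167, 162, 186, 164 and 182 CPM (−0.18 ± 0.05, adjusted p = 0.00246). In atf-6, pdi-1 and ire-1 the groups did not overlap, against 36.4% of all genes. Scaling mattered here. The median log2 fold change over all genes was 0.14 with TMM and 0.30 with library totals alone. With library totals, the lower level in mutants remained a call for pdi-1 but not for xbp-1 (−0.14, adjusted p = 0.113) or ire-1 (adjusted p = 0.775), and 4 genes were higher in mutants. For pdi-2 the higher level in mutants passed with DESeq2 (0.14, adjusted p = 0.00779) and without replicate 1 of wild type (0.13, adjusted p = 0.0289) or replicate 1 or 2 of the mutants (0.12, adjusted p = 0.0376 and 0.0416), and the lower level of pdi-3 passed without replicate 3 of the mutants (−0.12, adjusted p = 0.0183). With another filter on low counts, the lower level of ire-1 did not pass (−0.10, adjusted p = 0.081).

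Tissue markers also differed between the genotypes. At 0 mM, the oocyte and germline genes summed to 12660 to 15150 CPM in mutants, against 17050 to 19300 CPM in wild type, the neuronal genes to 279.8 to 308 CPM, against 233 to 250.5 CPM, and the pharynx genes to 118 to 197 CPM, against 52.3 to 117 CPM. At 400 mM the germline genes summed to 12870 to 13450 CPM in mutants, against 16310 to 18030 CPM in wild type, and the neuronal genes to 294 to 345 CPM, against 233 to 260.3 CPM. None of the genes in these 3 lists was at 0 in any of these groups. Of 12 hypodermis and cuticle genes, 8 were higher in mutants at 0 mM (median log2 fold change 1.96) and 9 at 400 mM (2.02), and 1 was lower at each dose. That list summed to 1143 to 1730 CPM in mutants at 0 mM, against 865 to 1332 CPM in wild type, and to 1335 to 1493 CPM at 400 mM, against 988 to 1528 CPM, with sqt-1 at 0 in both wild-type groups. Of 8 body wall muscle genes, 5 were higher in mutants at 0 mM and 4 at 400 mM. Their sums were 3290 to 4489 CPM in mutants at 0 mM, against 2461 to 3572 CPM in wild type, and 3287 to 4278 CPM at 400 mM, against 2351 to 4021 CPM. The part of these markers in the differences between genotypes was not tested, and the sources used here do not say whether mutants and wild type were grown on the same days.

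**Figure D4:**
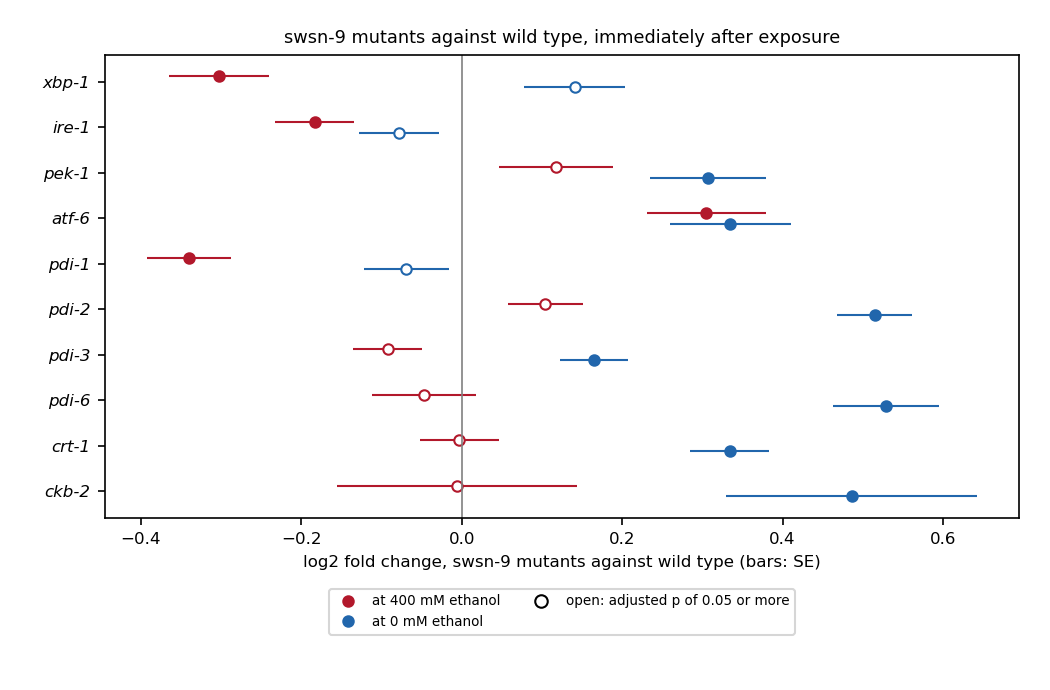
Log2 fold change in swsn-9 mutants against wild type (horizontal axis, bars are SE) of each gene at 400 mM (red) and 0 mM ethanol (blue), collected immediately after exposure. Filled points passed an adjusted p of 0.05. At 0 mM, 7 genes lay right of 0 and passed, and at 400 mM only atf-6 did, while xbp-1, ire-1 and pdi-1 lay left of 0 and passed.

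Across the 30 libraries, the levels of the 10 genes fell into sets that varied together. Pearson's r of log2 CPM was 0.94 for crt-1 and pdi-6, 0.90 for crt-1 and pdi-2, 0.87 for crt-1 and ckb-2 and 0.79 for crt-1 and pdi-3. With the group means taken out, so that only libraries of the same group were compared, these values were 0.85, 0.67, 0.57 and 0.56. A different set was ire-1 and pdi-1, with r of 0.86, or 0.59 without the group means, and both were negatively related to pdi-2 over all libraries (−0.66 and −0.64), but not within groups (−0.09 and 0.03). For pek-1, the relation to ire-1 was closer within groups (0.70) than over all libraries (0.18). The gene xbp-1 was closest to pdi-6 over all libraries (0.70) and to crt-1 within groups (0.66). These values describe libraries that share 6 group means and a common scaling, and no test was made.

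Among 7112 genes with a mean of at least 10 CPM, 4 of the 10 genes had another of the 10 as their closest match. The closest gene to crt-1 was pdi-6 and the closest to pdi-6 was crt-1, and crt-1 was also first for pdi-3 (0.79) and ckb-2 (0.87). For ire-1 the closest was skn-1, which encodes a transcription factor of the oxidative stress response (0.95, or 0.85 without the group means), for pdi-1 it was picc-1 (0.95), for pdi-2 K07A1.6 (0.91), followed by the chaperone gene dnj-7 (0.91), for xbp-1 cpt-2 (0.89), for pek-1 rbg-1 (0.81) and for atf-6 C41G11.1 (0.80).

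**Figure D5:**
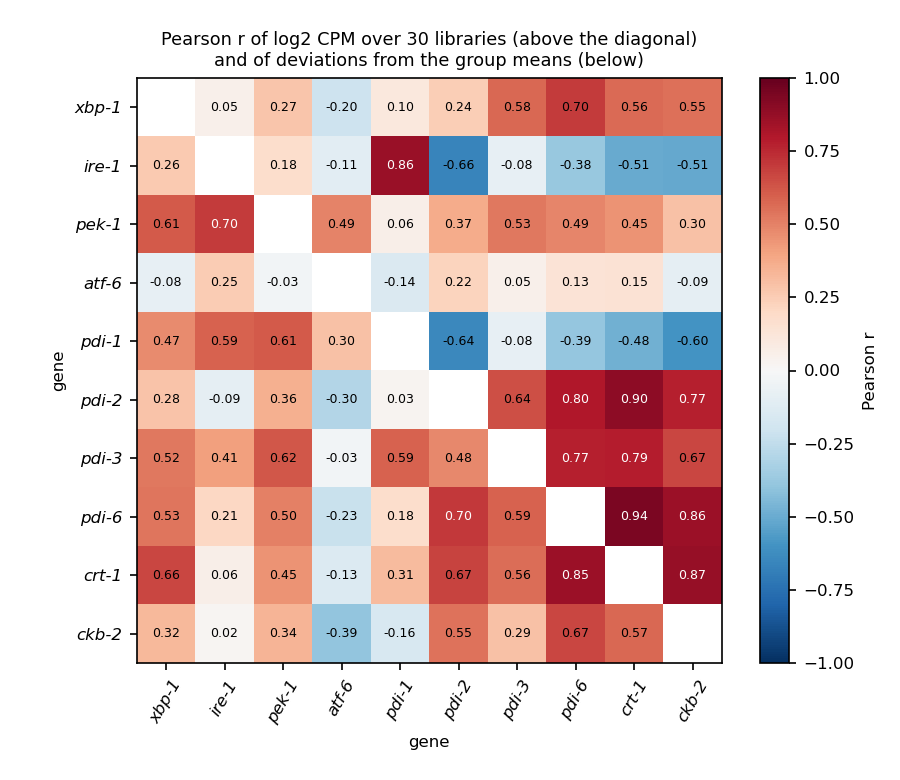
Pearson's r of log2 CPM between pairs of the 10 genes (rows and columns) over 30 libraries (above the diagonal) and of deviations from the 6 group means (below), on a color scale that runs between −1 and 1. The genes crt-1, pdi-6, pdi-2, pdi-3 and ckb-2 form a block of high values above the diagonal, between 0.64 and 0.94, and ire-1 with pdi-1 stands apart at 0.86.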

How the data were processed

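PolyA-selected RNA of pooled whole worms was sequenced as paired-end reads. The authors checked reads with FastQC and aligned them with STAR 2.6.0a, keeping 1 alignment per read, and deposited raw counts per gene, without normalization or pooling. The study's methods name the assembly WBcel325, which was taken as WBcel235. The strand setting and annotation release are not given in the sources used here. Of 46739 genes, 21921 had no count, 46484 matched the annotation and 43720 had a symbol.

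Groups came from the sample labels. Genes with a mean count of at least 1 were tested in edgeR 4.0.16 (R 4.3.3, limma 3.58.1) with TMM scaling, quasi-likelihood tests and Benjamini-Hochberg adjustment at 0.05, on the 20 wild-type libraries for wild-type comparisons and on all 30 for those with mutants. CPM and log2 CPM (prior count of 2) used 1 TMM scale over 30 libraries. The fit was tested on simulated data. Control and ethanol exposures were run in parallel and replicates on different days. The main fit did not pair libraries, so its error includes any spread between days that control and ethanol libraries shared. The replicate number as a block was an alternative.

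Alternatives were the size factors of DESeq2 in edgeR, library totals, DESeq2 1.42.0, no filter and filterByExpr, other sets of libraries, the replicate number as a block, a prior count of 1, and each library left out with scaling factors and genes held. TMM factors averaged over reference libraries were added after seeing the data.

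All 10 genes were named, with hsp-3, hsp-4 and swsn-9. From each pathway list, up to 2 genes that rose and 2 that fell with the smallest p were named per ethanol comparison, and for each of the 10 genes up to 3 genes with the highest r. The 10 genes and the lists were chosen with earlier results of these data known. Sequences were not analysed here.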

Additional observations from a re-analysis of the deposited data

Results flagged for a closer look

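In 60 groups of 5 libraries, 1 for each gene and group, 6 had a library whose gap to the nearest other one was more than 0.71 of the group's range. Chance alone flags about 1 in 20 such groups. In swsn-9 mutants at 0 mM, replicate 3 was high for xbp-1 (301.1 CPM) and replicate 5 was low for ire-1 (136.9 CPM). In wild type at 400 mM and 6 h, replicate 1 was high for ire-1 (202.1 CPM), and replicate 3 was high for both pdi-2 (753.9 CPM) and ckb-2 (28.65 CPM). That replicate 1 also lay apart over all genes, with a chi-square per gene of 267.6 to 331.6. Before TMM scaling it was not high for ire-1, with 2678 counts in 16601175 reads. Replicate 2 of the same group had 2831 counts in 16511768 reads. In wild type at 400 mM collected immediately, replicate 2 was low for pdi-1 (411.2 CPM).

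The effect of ethanol in wild type differed between times, as immediately minus 6 h, by 0.618 for xbp-1, 0.315 for pdi-3, 0.638 for pdi-6, 0.987 for ckb-2 and 0.367 for crt-1 on the log2 scale. It differed between genotypes, as swsn-9 mutants minus wild type, by -0.444 for xbp-1, -0.271 for pdi-1, -0.411 for pdi-2, -0.256 for pdi-3, -0.576 for pdi-6 and -0.337 for crt-1. All these differences come from the edgeR tests above.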

How the results depend on the processing

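All 6 rises in wild type immediately after exposure, the rise of xbp-1 in mutants, and the differences between genotypes of xbp-1, pdi-2, pdi-6 and crt-1 passed under every alternative that was run and without any 1 library. Some other calls depended on scaling. Errors were largest for the 2 genes with the lowest CPM, ckb-2 (SE 0.17 immediately in wild type) and atf-6 (0.09). Library totals moved the median of all genes in mutants against wild type to 0.21 at 0 mM and 0.30 at 400 mM. They moved the share of DEGs that were higher from TMM's 53.4% to 66.6% for ethanol immediately, from 70.6% to 54.8% at 6 h (60.4% with size factors of DESeq2, 54.2% with DESeq2), from 41.3% to 63.7% in mutants, from 41.2% to 59.9% for the difference between times, from 45.04% to 26.6% between times at 400 mM, and between genotypes from 51.02% to 79.7% at 0 mM and from 51.2% to 75.5% at 400 mM.

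Counts moved as follows. At 6 h, 1 of the 10 genes was lower with size factors of DESeq2, with DESeq2, with filterByExpr and with the replicate block, and DEGs numbered 389 with library totals and 1111 with DESeq2, in place of 639. In mutants, 2 genes rose when only the compared groups were fitted, and 0 fell with library totals, 1 with filterByExpr and 1 with only the compared groups. DEGs for the difference between genotypes numbered 441 with library totals. Between times at 400 mM, 1 gene was higher with all 30 libraries. Between genotypes at 400 mM, 2 genes were higher with size factors of DESeq2, DESeq2, no filter or averaged TMM references, 3 with filterByExpr and 4 with library totals, which left 1 lower. The causes were not tested.

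Leaving out 1 library at a time gave 322 to 662 DEGs at 6 h, 1 to 2 genes lower in mutants, 2 to 5 genes higher and 1953 to 3708 DEGs between times at 0 mM, and 1 to 2 genes higher between genotypes at 400 mM. At 6 h, DEGs numbered 390 without replicate 5 at 400 mM and 425, 322 and 413 without replicates 1, 4 and 5 at 0 mM, and the 1953 DEGs between times came without replicate 4 collected immediately. The sign of small, uncalled log2 values turned within these ranges: atf-6 immediately -0.046 to 0.058, pdi-2 at 6 h -0.039 to 0.035, pdi-6 at 6 h -0.086 to 0.015, pek-1 in mutants -0.115 to 0.028, atf-6 between genotypes' effects -0.081 to 0.021, pek-1 between times at 400 mM -0.020 to 0.058, and between genotypes at 400 mM ckb-2 -0.094 to 0.125 and crt-1 -0.036 to 0.016.

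Signs also turned with other settings. With library totals they were -0.010 for pdi-1 and -0.036 for pdi-2 at 6 h, 0.013 for ire-1, 0.030 for pek-1, 0.035 for atf-6, 0.006 for pdi-3 and 0.029 for crt-1 in mutants, -0.012 for ire-1 and -0.048 for pek-1 between times at 400 mM, 0.071 for ire-1 and 0.078 for pdi-1 between genotypes at 0 mM, and 0.074 for pdi-3, 0.118 for pdi-6, 0.161 for ckb-2 and 0.162 for crt-1 at 400 mM, where crt-1 passed. For atf-6 immediately they were -0.009 (size factors of DESeq2), -0.005 (DESeq2 and all 30 libraries), -0.010 (filterByExpr) and -0.001 (averaged references), and for pdi-2 at 6 h -0.008 (size factors of DESeq2 and DESeq2), -0.006 (no filter) and -0.001 (filterByExpr and averaged references). For atf-6 in mutants they were 0.002 (filterByExpr) and 0.001 (only the compared groups), and between genotypes' effects 0.015 and 0.007. Between genotypes at 400 mM, ckb-2 was 0.026 (size factors of DESeq2), 0.024 (DESeq2), 0.028 (no filter), 0.080 (filterByExpr), 0.002 (only the compared groups) and 0.008 (averaged references), crt-1 was 0.028, 0.028, 0.030, 0.082, 0.002 and 0.011 in the same order, and pdi-6 was 0.038 (filterByExpr).

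The replicate numbers were not taken as pairs in the main fit, since no label says that a number marks a day. Same-numbered libraries at 400 mM and 0 mM correlated over 0.1 in 8 of 15 pairs (mean 0.105, range -0.118 to 0.329). Of 15 libraries at 400 mM, 9 correlated best with their own number among the 5 libraries at 0 mM of the same genotype and time. With the number as a replicate block, DEGs were 1583 at 6 h (639 without the block), 1576 for the difference between times (856 without it) and 1171 for that between genotypes (237 higher and 466 lower without it), and the block added calls of pek-1 (0.15, adjusted p = 0.0495) and pdi-1 (0.12, adjusted p = 0.0312) immediately, pdi-3 at 6 h (-0.12, adjusted p = 0.0168), and pek-1 (0.25, adjusted p = 0.031) and pdi-2 (0.22, adjusted p = 0.00521) for the difference between times, in the edgeR fit. It changed no other call of the 10 genes.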
